A study of Caenorhabditis elegans with 45 samples.

Results

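The 10 genes described here act in RNA interference (RNAi) in the nematode Caenorhabditis elegans or lie across such a gene: sid-1 and sid-2 (uptake of double-stranded RNA), rde-4, dcr-1 and drh-1 (its cutting), rrf-1, mut-16 and rde-10 (amplification of the response), and eri-6 with its overlapping neighbour sosi-1. They were chosen by name and function, without a threshold on any measured value, but with earlier results of these data known. All 10 passed the filter on low counts, which kept 16439 genes of 19683 that had any count. The series holds 45 poly(A) RNA-seq libraries of whole hermaphrodites on day 1 of adulthood, with 3 libraries in each of 15 groups. The groups are the laboratory strain N2, the wild strains CB4856, DL238, ECA701, ECA722, EG4348, QX1211 and XZ1516, and the F1 offspring of each wild strain. Parental worms came from selfing, and F1 worms from wild males mated to N2 mothers with a deletion of fog-2, which are essentially female because hermaphrodites need fog-2 to make sperm. The genotype label of the parental N2 libraries names that fog-2 deletion too, under strain CB4108. Males were removed from the plates, and worms were collected when most carried embryos. These are bulk libraries of whole worms, so fewer cells of a type and less RNA per cell cannot be told apart.

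RNAi silences genes that match a double-stranded RNA. In C. elegans such RNA can enter cells through the channel SID-1, after SID-2 takes it up from the gut, and Dicer (DCR-1) cuts it with the help of the RNA-binding protein RDE-4. RNA-directed RNA polymerases then copy the target transcript into secondary small RNAs, largely at perinuclear foci built on MUT-16, so a small trigger gives a strong response. ERI-6 works in the opposite sense for experimental RNAi: with the product of eri-7, to which its RNA is joined by trans-splicing, it forms a helicase needed for a class of endogenous small RNAs, and worms without it respond to RNAi more strongly.

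The libraries held 24.5 to 90.5 M estimated counts each (median 63.6 M). The fog-2 level in the libraries labelled N2 in counts-per-million units (CPM) was 36.9, 45.3 and 44.3, within the range of the wild parental libraries of 31.7 to 46.8 CPM. In the F1 libraries the wild allele supplied, on average per cross, 86.5% to 93.3% of the reads of fog-2 that told alleles apart. The label of the parental N2 libraries and their fog-2 level therefore went against each other, and "N2" below means the libraries labelled N2. Levels are CPM after scaling by edgeR's trimmed mean of M-values (TMM), used within a gene. Levels of different genes are compared in transcripts-per-million units (TPM), which take length into account. A difference is called where edgeR's quasi-likelihood test, fitted on all 45 libraries, gave a Benjamini-Hochberg adjusted p under 0.05 over all genes tested, and it is given as a log2 difference with its SE.

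In N2, rde-4 had the highest level of the 10 genes, 138 TPM. The levels of mut-16 (39.3 TPM), dcr-1 (37.5 TPM), sid-1 (26.7 TPM), drh-1 (26.3 TPM), rde-10 (21.9 TPM), rrf-1 (19.3 TPM) and eri-6 (16.1 TPM) followed. The lowest were sid-2 (8.40 TPM), a gut gene measured in whole worms, and sosi-1 (0.130 TPM). All 10 genes differed among the 8 parental strains, where 88.1% of all genes tested did. How far they differed set them apart from each other more than the call did. The highest strain mean in CPM was 21.5 times the lowest for sosi-1, 5.89 times for sid-1 and 3.53 times for eri-6. For the other 7 genes it was between 1.15 and 1.47 times.

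**Figure D1:**
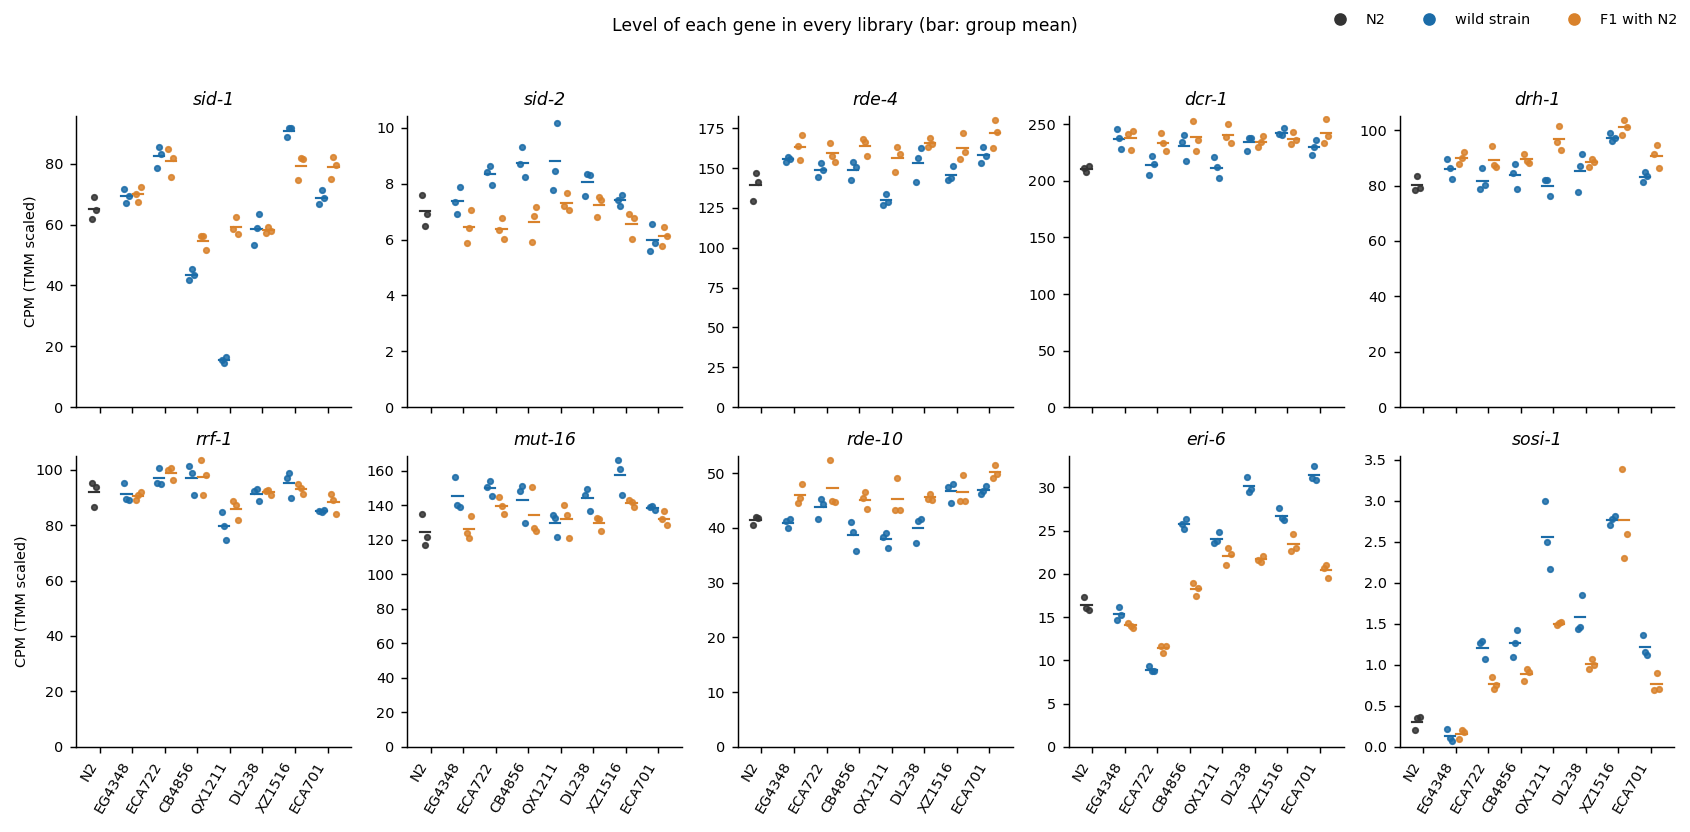
Level of each of the 10 genes in every library (vertical axis in CPM from 0, a panel per gene), with N2 and each wild strain beside its F1 along the horizontal axis, 1 point per library and a bar at the group mean. The wide ranges are those of sosi-1, sid-1 (15.4 CPM on average in QX1211) and eri-6, while the dicing and amplification genes stayed within narrow bands.

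Each wild strain was compared with N2, and these comparisons share the N2 libraries. Of 70 comparisons (10 genes in 7 strains), 41 were called, 33 with the wild strain higher and 8 with it lower. Over all genes the wild strain was called higher in 2993 to 4557 genes per strain and lower in 2201 to 4070. The members' calls numbered 4 of 10 in EG4348, where 34.8% of all genes were called. They numbered 8 in ECA701 (52.5% of all genes), 7 in XZ1516 (45.3%), 6 in CB4856 (31.6%), 6 in DL238 (35.9%), 5 in ECA722 (41.4%) and 5 in QX1211 (45.2%).

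Of the uptake genes, sid-1 (chromosome V, 5119970 to 5126916, plus strand, build WBcel235) showed the strongest strain difference. Its level was 61.9, 69.1 and 64.8 CPM in N2 and 15.4, 14.4 and 16.4 CPM in QX1211. In CB4856 it was 41.7, 45.5 and 43.3 CPM. Both wild strains lay below every N2 library, with no overlap. The difference from N2 was -2.09 ± 0.06 in QX1211 (adjusted p = 1.0e-26) and -0.59 ± 0.06 in CB4856 (adjusted p = 8.6e-11). At the other end, XZ1516 had 88.7, 91.8 and 91.8 CPM and ECA722 had 78.6, 85.6 and 83.2 CPM, all above N2. These rose by 0.47 ± 0.05 and 0.34 ± 0.05 on the log2 scale. The levels of EG4348 (67.2 to 71.6 CPM) and ECA701 (66.7 to 71.3 CPM) overlapped N2 and were not called. The call in DL238 (-0.16 ± 0.06) ended without N2 replicate 2 or DL238 replicate 1, where the adjusted p reached 0.172.

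The low sid-1 level of QX1211 was not passed on to its F1. The F1 libraries had 58.7, 62.4 and 56.8 CPM, all above the QX1211 libraries and 2 of the 3 below every N2 library. The F1 exceeded its wild parent by 1.95 ± 0.06 and the mid-parent value by 0.90 ± 0.05, the mid-parent value being the mean of the parents' log2 levels. Its difference from N2, -0.14 ± 0.06, lost its call without any of 4 libraries (N2 replicates 2 and 3, F1 replicates 1 and 3, adjusted p up to 0.220). Reads that differ between the parental sequences told the 2 alleles apart within the F1 worms. The QX1211 allele gave 296 such reads and the N2 allele 337 in F1 replicate 1, 203 and 259 in replicate 2, and 185 and 221 in replicate 3, a wild share of 43.9% to 46.8%. So each allele supplied close to an equal share in the same worms, and the allelic difference of -0.27 ± 0.08 was not called (adjusted p = 0.098). The difference between parents exceeded that between alleles by -1.84 ± 0.10 (adjusted p = 8.0e-07). CB4856 showed the same order at a smaller size: the wild allele gave 1143 allele-specific reads and the N2 allele 1122, the allelic difference was 0.03, and the parental minus allelic difference was -0.65 ± 0.11 (adjusted p = 0.0039). In no testable cross did the sid-1 alleles differ by a call, over 6 crosses.

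The gut gene sid-2 (chromosome III, 13679445 to 13682450, plus strand, overlapping dyf-2 on the minus strand) varied less. N2 had 7.61, 6.49 and 6.93 CPM, and the highest strain, QX1211, had 7.77, 8.44 and 10.2 CPM. CB4856 had 8.69, 9.31 and 8.23 CPM. Libraries of both strains lay above N2, with differences of 0.32 ± 0.09 and 0.33 ± 0.09. The lowest strain was ECA701 (5.59, 6.56 and 5.86 CPM), where the libraries overlapped N2. All 4 calls for sid-2 against N2 rested on single libraries. They ended without CB4856 replicate 2, without QX1211 replicate 3, without N2 replicate 1 or 3 or ECA701 replicate 1 or 3, and without N2 replicate 2 or 3 or ECA722 replicate 1 or 2, with adjusted p up to 0.0714, 0.0597, 0.178 and 0.133. No F1 group was called against N2 and no pair of alleles was called for sid-2.

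The dicing genes differed little between strains and were higher in all F1 groups than in N2. The level of rde-4 (chromosome III, 10217302 to 10218646, minus strand) was 129, 147 and 142 CPM in N2, and 127 to 163 CPM over the 21 wild parental libraries. For dcr-1 (chromosome III, 8071967 to 8080281, minus strand) N2 had 211, 208 and 213 CPM, and the wild parental libraries 202 to 246 CPM. The helicase gene drh-1 (chromosome IV, 6607376 to 6613353, minus strand), known for antiviral defence, had 78.3, 83.5 and 79.0 CPM in N2 and 76.0 to 99.0 CPM in the wild parents. Wild strains were called higher than N2 in 3 of 7 strains for rde-4, 5 for dcr-1 and 1 for drh-1, and lower in none. For drh-1 that strain was XZ1516, with 99.0, 96.0 and 97.0 CPM, above every N2 library by 0.28 ± 0.05 (adjusted p = 1.1e-05). All 3 rde-4 calls ended without a single library, which was N2 replicate 1, EG4348 replicate 1 or 2, DL238 replicate 2 or 3, or ECA701 replicate 2 (adjusted p up to 0.329). Of the dcr-1 calls, that in XZ1516 held (0.20 ± 0.04). The other 4 ended without EG4348 replicate 1, N2 replicate 2, CB4856 replicate 1 or 2, DL238 replicate 2 or 3, or any ECA701 library (adjusted p up to 0.246).

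In the F1 groups each of these 3 genes was called higher than in N2 in 7 of 7 crosses. The increase was 0.17 to 0.30 for rde-4, 0.15 to 0.20 for dcr-1 and 0.14 to 0.33 for drh-1. The 21 F1 libraries had 148 to 180 CPM of rde-4, so every F1 library exceeded the highest N2 library. The same was true of dcr-1, with 226 to 255 CPM, and of drh-1, with 86.3 to 104 CPM. Of these calls 5 held for rde-4, 3 for dcr-1 and 2 for drh-1 whichever library was left out. Those that ended did so without N2 replicate 1 or 3, F1 EG4348 replicate 3, F1 CB4856 replicate 1, F1 QX1211 replicate 2, any F1 DL238 library, F1 ECA701 replicate 2 or F1 ECA722 replicate 1, with adjusted p up to 0.142 for rde-4, 0.114 for dcr-1 and 0.203 for drh-1. Against the mid-parent value rde-4 was called higher in 7 crosses (0.15 to 0.22), drh-1 in 6 and dcr-1 in 4. Against the wild parent the F1 was called higher in fewer: 3 of 7 crosses for rde-4, 2 for dcr-1 and 3 for drh-1. The alleles of rde-4 and dcr-1 did not differ by a call in any of the 6 and 7 testable crosses. For drh-1 the wild allele was called higher in XZ1516 alone (0.34 ± 0.05), a call that ended without F1 replicate 1 or 2 (adjusted p 0.0775).

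These F1 increases stood beside higher levels of germline marker genes. The summed level of 6 oocyte markers averaged 3914 CPM in N2, 3917 to 5123 CPM in the wild strains and 4803 to 5297 CPM in the F1 groups. The sum of 6 germline granule genes averaged 2963 CPM in N2, 2961 to 3388 CPM in the wild strains and 3359 to 3558 CPM in the F1 groups. Sums of 6 intestinal markers, of which 5 were detected, did not move the same way. They were 676 CPM in N2, 590 to 864 CPM in the wild strains and 578 to 690 CPM in the F1 groups. Sums of 6 sperm markers were low, at 6.94 CPM in N2, 4.87 to 12.0 CPM in the wild strains and 5.20 to 9.93 CPM in the F1 groups. Sums of 5 embryo markers were lower still, at 4.60 CPM in N2, 3.99 to 5.52 CPM in the wild strains and 3.71 to 4.37 CPM in the F1 groups. A list of 5 male markers summed to 54.2 CPM in N2, 0.655 to 49.6 CPM in the wild strains and 43.6 to 65.5 CPM in the F1 groups. The part of cell composition in the F1 increases was not tested.

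Of the amplification genes, rrf-1 (chromosome I, 7643431 to 7649777, minus strand) encodes an RNA-directed RNA polymerase active in somatic tissue. N2 had 95.1, 86.7 and 93.9 CPM, and QX1211 had 84.6, 79.5 and 74.7 CPM. Every QX1211 library lay below N2, by -0.20 ± 0.05 (adjusted p = 5.1e-04). The lower call in ECA701 (-0.11 ± 0.05) ended without N2 replicate 1 or 3 (adjusted p 0.156). No F1 group was called against N2 for rrf-1. The gene rde-10 (chromosome I, 3547071 to 3552005, plus strand, overlapping Y47G6A.21 on the minus strand), which promotes secondary small RNA accumulation, had 40.5, 42.1 and 41.8 CPM in N2. Its highest strains were ECA701 (46.3, 46.8 and 47.7 CPM) and XZ1516 (47.5, 44.5 and 48.1 CPM), all above N2. Those increases, 0.18 ± 0.06 and 0.17 ± 0.06, lost their calls without ECA701 replicate 2 or 3 or XZ1516 replicate 1 or 3 (adjusted p up to 0.0698 and 0.0979). F1 groups were called higher than N2 for rde-10 in 4 of 7 crosses, by 0.15 to 0.27, and the call in ECA701 (0.27 ± 0.06) held without any single library. The others ended without any N2 or F1 EG4348 library in EG4348, without N2 replicate 1 or F1 replicate 2 in XZ1516, and without F1 replicate 1 in ECA722 (adjusted p up to 0.274, 0.235 and 0.239).

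The scaffold gene mut-16 (chromosome I, 10080159 to 10085765, plus strand) combined small differences between parents with larger ones between alleles. N2 had 135, 117 and 122 CPM, QX1211 had 135, 132 and 122 CPM, and ECA701 had 139, 140 and 137 CPM. XZ1516 had 166, 161 and 146 CPM and ECA722 had 151, 154 and 145 CPM, above every N2 library by 0.34 ± 0.06 and 0.27 ± 0.06. The calls in EG4348, CB4856, DL238 and ECA701, of 0.16 to 0.22, all ended without N2 replicate 2. They also ended without EG4348 replicate 1, without N2 replicate 3 or CB4856 replicate 1 or 2, without DL238 replicate 1 or 2, and without N2 replicate 3 or any ECA701 library (adjusted p up to 0.151, 0.162, 0.0790 and 0.200). QX1211 was not called against N2.

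Within the F1 worms the wild allele of mut-16 gave the larger share of allele-specific reads in every library of all 5 testable crosses. In the QX1211 cross it gave 1097 reads against 571 for the N2 allele in replicate 1, 792 against 334 in replicate 2 and 737 against 402 in replicate 3. In the XZ1516 cross the counts were 1082 against 511, 1085 against 508 and 703 against 318. ECA701 gave 830 against 474, 750 against 413 and 420 against 283. The wild share averaged 66.9% ± 3.0 (SD, n = 3) in QX1211, 68.3% ± 0.49 in XZ1516 and 62.6% ± 2.5 in ECA701. In ECA722, with 400 against 190, 374 against 199 and 194 against 78 reads, it averaged 68.1% ± 3.0. CB4856 had fewer informative reads, 178 against 119, 169 against 50 and 167 against 84, and a share of 67.9% ± 8.7. No library of these crosses fell under 59.7%, so the wild allele led in each.

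The allelic differences in mut-16 were 1.05 ± 0.08 in QX1211, 1.14 ± 0.05 in XZ1516, 0.75 ± 0.07 in ECA701, 1.09 ± 0.09 in ECA722 and 1.10 ± 0.22 in CB4856. The call in CB4856 (adjusted p = 0.047) ended without F1 replicate 2 or 3 (adjusted p 0.128). The parental difference was smaller than the allelic one by -1.01 ± 0.10 in QX1211, -0.82 ± 0.09 in XZ1516, -0.64 ± 0.09 in ECA701, -0.86 ± 0.11 in ECA722 and -0.93 ± 0.23 in CB4856. The value for CB4856 lost its call without any of the 6 parental libraries (adjusted p 0.0860). In parental libraries the reads fell to the allele of the strain: the N2 libraries gave 5132 N2-specific mut-16 reads and 5 of the other allele, which in the files of the N2 parents is that of QX1211, and the QX1211 libraries 3810 of their own and 2 of N2. Of 5934 genes testable in at least 5 crosses, 34 had the wild allele called higher in every testable cross and 29 had it called lower in every one. Of the 34, 8 also had the parental difference called below the allelic one in all, and mut-16 and fog-2 were among them. The N2 alleles of the F1 worms came from fog-2 mothers, while the parental N2 libraries had fog-2 RNA at the level of wild strains. For these tests a difference between those N2 stocks and an effect of the F1 background cannot be told apart. In every cross the wild allele came from the father and the N2 allele from the mother. The strain of an allele and its parent of origin therefore cannot be told apart either.

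**Figure D2:**
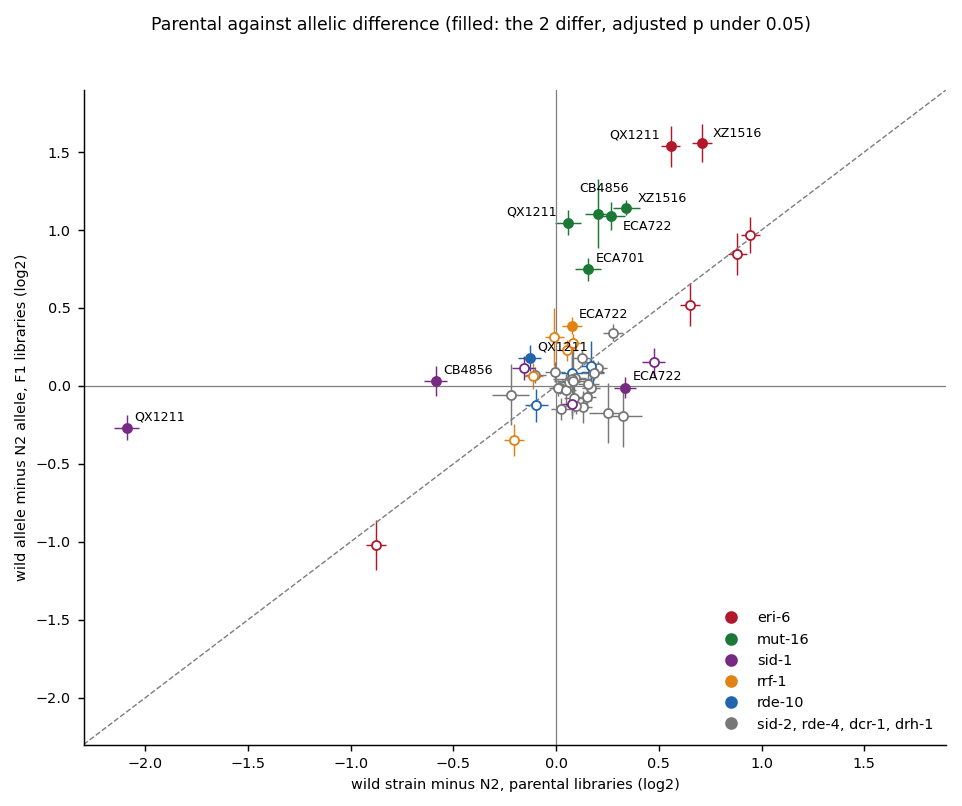
Wild-minus-N2 difference between parental strains (horizontal axis, log2) against that between alleles within the F1 (vertical axis, log2), with 1 point per gene and cross, error bars of 1 SE and filled points where the contrast of both was called; sosi-1 is not drawn. Points of mut-16 lie above the diagonal at allelic differences of 0.75 to 1.14, and sid-1 in QX1211 lies far to the left of it at -2.09 between parents and -0.27 between alleles.

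At the eri-6 locus (chromosome I, 4457375 to 4469460, plus strand) the gene sosi-1 lies inside the span of eri-6 on the opposite strand (4460146 to 4462704), and eri-7 lies 569 bases away, also on the opposite strand. The annotation gives eri-6 an upstream set of transcripts (a to d), which end before sosi-1 (a), within it (b.1) or past it (b.2, c and d), and a downstream pair (e and f) that starts past sosi-1. Exons of the upstream and downstream sets share 0 bases. Transcript b.1 shares 1131 exonic bases with sosi-1, and the overlapping genes linc-104 and T01A4.9 also lie in the span. Earlier work on N2 described sosi-1 and the downstream eri-6 transcripts as targets of small RNAs that depend on the mutator genes. Counts of eri-6 and sosi-1 in the shared stretch depend on how reads were assigned between strands, which the sources used here do not state.

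The eri-6 level was 17.3, 16.1 and 15.8 CPM in N2 and 14.6, 16.1 and 15.3 CPM in EG4348, and these overlapped. ECA722 was the lowest strain, with 9.28, 8.71 and 8.71 CPM. ECA701 (31.1, 32.5 and 30.8 CPM) and DL238 (31.2, 29.4 and 29.8 CPM) were the highest. CB4856 (25.2 to 26.3 CPM), XZ1516 (26.2 to 27.6 CPM) and QX1211 (23.6 to 24.8 CPM) lay between. In the order of strain means, DL238 and ECA701 overlapped each other, CB4856 and XZ1516 overlapped, and EG4348 and N2 overlapped, with gaps between the other neighbours. The difference from N2 was 0.95 ± 0.05 in ECA701, 0.88 ± 0.05 in DL238, 0.71 ± 0.05 in XZ1516, 0.65 ± 0.05 in CB4856 and 0.56 ± 0.05 in QX1211. It was -0.88 ± 0.05 in ECA722 and -0.09 ± 0.05 in EG4348. The 6 calls, with adjusted p from 3.2e-19 to 2.4e-12, all held when any single library was left out.

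The transcripts of eri-6 split these strains further. In N2 the downstream transcripts e and f held 23.5% ± 2.8 of the eri-6 counts (SD, n = 3), in EG4348 22.9% ± 0.55 and in ECA722 24.3% ± 1.2. In the other 5 wild strains they held 0.69% to 1.37% on average, and no library of those strains exceeded 1.63%. The level of e and f together was 3.86 ± 0.65 CPM in N2, 3.52 ± 0.10 CPM in EG4348 and 2.16 ± 0.03 CPM in ECA722, against 0.188 to 0.354 CPM on average in the other 5. The level of a to d together ran the other way: 12.5 ± 0.15 CPM in N2, 11.8 ± 0.67 CPM in EG4348 and 6.74 ± 0.36 CPM in ECA722, against 23.8 to 31.2 CPM in the other 5. So the strains fell into 3 with counts of both sets and 5 with few downstream counts and a higher upstream level, with no overlap in either. How far reads of these 5 strains failed to match the downstream transcript models was not tested. Tested separately, a division chosen after seeing the data, a to d rose by 0.93 to 1.32 in those 5 strains while e and f fell by 3.47 to 4.36 on the log2 scale. In ECA722 both sets were lower than in N2, a to d by -0.89 ± 0.05 and e and f by -0.83 ± 0.19 (adjusted p = 4.8e-04). Transcript c, which ends between sosi-1 and the start of e, was 4.00 TPM in N2, 3.55 TPM in EG4348 and 4.85 TPM in ECA722, and 17.9 to 23.4 TPM in the other 5 strains. Transcripts a to d share most of their exons, so their separate levels are uncertain. In ECA701, for example, transcript d ran from 1.3e-09 to 3.77 CPM between libraries. Transcript a averaged 0.934 CPM in N2. It averaged 8.77 CPM in DL238, 9.78 CPM in ECA701 and 4.37 CPM in CB4856, but 0.589 CPM in QX1211 and 0.753 CPM in XZ1516. Estimates from the second tool, salmon, whose models of e and f have other structures, put their share at 23.7% ± 5.7 in N2, 26.2% ± 3.6 in EG4348, 21.9% ± 2.5 in ECA722 and 0.424% to 1.75% on average in the other 5 strains.

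**Figure D3:**
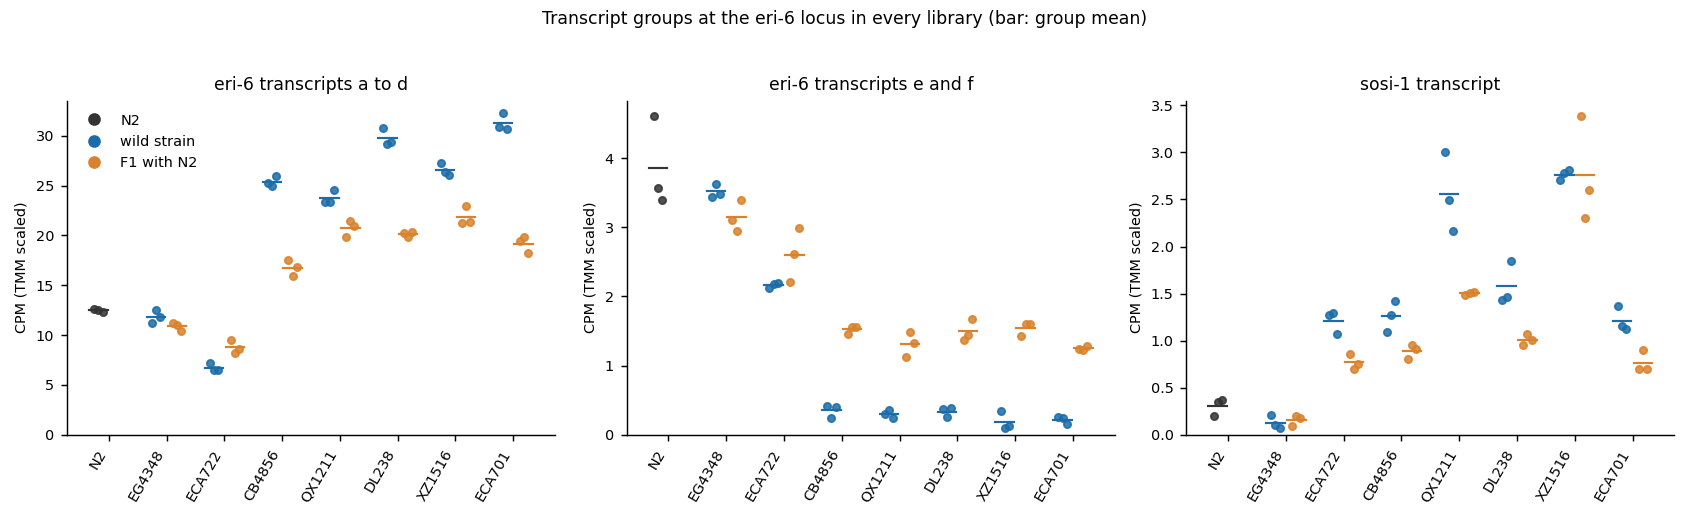
Level of the eri-6 transcripts a to d, of e and f, and of the sosi-1 transcript in every library (CPM), by parental strain and F1 group, with 1 point per library and a bar at the group mean. N2, EG4348 and ECA722 have e and f at 2.16 to 3.86 CPM on average, while the other 5 wild strains are at 0.188 to 0.354 CPM and have a to d at 23.8 to 31.2 CPM.

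The F1 groups of 6 crosses lay between their parents in eri-6. The level was 19.0, 17.5 and 18.3 CPM for CB4856, 21.0, 23.0 and 22.3 CPM for QX1211 and 21.6, 21.3 and 22.0 CPM for DL238. It was 22.6, 24.6 and 23.0 CPM for XZ1516, 20.7, 21.1 and 19.5 CPM for ECA701 and 11.7, 10.8 and 11.6 CPM for ECA722. All 6 of these groups were classed as intermediate, since they differed by a call from each parent in opposite directions. For 2 of the 12 calls behind that class a single library mattered: CB4856 against N2 (0.16 ± 0.05; N2 replicate 3 or F1 replicate 1, adjusted p 0.134) and QX1211 against its wild parent (-0.12 ± 0.05; QX1211 replicate 3 or F1 replicate 1, adjusted p 0.0903). The F1 of EG4348 had 14.3, 13.9 and 13.8 CPM, below every library of both parents, by -0.22 ± 0.05 against N2. Its difference from EG4348 was not called (-0.13 ± 0.05, adjusted p = 0.051). The share of e and f was 5.94% to 8.35% on average in the F1 of the 5 strains with few counts of them, between N2 and the wild parent. It was 22.5% ± 1.9 in the F1 of EG4348 and 22.9% ± 3.6 in that of ECA722. From salmon the F1 shares were further apart, 3.70% ± 1.9 for QX1211 and 13.6% ± 2.2 for CB4856 at the ends of those 5, 27.3% ± 2.5 for EG4348 and 31.2% ± 3.6 for ECA722.

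Allele-specific reads of eri-6 leaned the same way as the parental difference in all 6 crosses that could be read, though not in the order of its size. The wild share averaged 75.8% ± 1.6 in QX1211, 75.0% ± 0.99 in XZ1516, 61.4% ± 0.59 in ECA701, 59.5% ± 1.6 in DL238, 53.9% ± 1.8 in CB4856 and 34.3% ± 3.3 in ECA722 (SD, n = 3 each). Every library of the first 5 crosses lay above 50% and every library of the ECA722 cross below it. The allelic test used estimated counts per allele, in which reads shared by both alleles are also divided. In those counts the wild share was 65.1% to 67.9% in ECA701, 61.5% to 67.1% in DL238 and 56.3% to 61.2% in CB4856. The allelic difference was called in QX1211 (1.54 ± 0.13), XZ1516 (1.56 ± 0.12), ECA701 (0.97 ± 0.12), DL238 (0.85 ± 0.14) and ECA722 (-1.02 ± 0.16), and not in CB4856 (0.52 ± 0.14, adjusted p = 0.099). Of these calls, ECA701 ended without F1 replicate 2 (adjusted p 0.0528), and DL238 and ECA722 ended without any of their F1 libraries (adjusted p up to 0.136 and 0.0979). The parental difference was below the allelic one by -0.92 ± 0.12 in QX1211 and -0.78 ± 0.12 in XZ1516. In the other 4 crosses the same contrast was between -0.02 and 0.16 and not called.

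Reads assigned to the upstream and the downstream region of eri-6 split between the alleles differently. The transcript models behind these reads carry the same names but other structures than those above, so they were sorted into an upstream class (transcript a and not e) and a downstream class (transcript e without a, b.1 or d). Downstream reads of the N2 allele numbered 35, 41 and 62 in the 3 F1 libraries of CB4856 against 1, 0 and 1 of the wild allele. In the QX1211 cross they numbered 31, 16 and 19 against 0, 0 and 0, a total of 66 against 0. In the DL238 cross the totals were 121 against 3, in XZ1516 101 against 6 and in ECA701 119 against 4. So nearly all allele-specific downstream reads in these 5 crosses were assigned to the N2 allele. That assignment was poor in the wild parents themselves, where few such reads were seen: 11 were assigned to the N2 allele and 10 to the wild allele in ECA701, 8 and 9 in CB4856, 5 and 1 in XZ1516, 9 and 17 in DL238, and 0 and 7 in QX1211. How far it moved the F1 shares was not tested. In the ECA722 cross 82 downstream reads were of the wild allele and 152 of the N2 allele, a wild share of 35.0%, beside 36.5% of the upstream reads. Upstream reads leaned the other way in the 5 crosses: 428 wild against 193 N2 reads in CB4856, 654 against 128 in QX1211, 517 against 190 in DL238, 777 against 152 in XZ1516 and 512 against 178 in ECA701. The wild share of upstream reads was therefore 68.9% to 83.6% in those crosses. The parental libraries of the same 5 strains had 38 to 62 downstream reads in total per strain, against 697 in N2, 568 in EG4348 and 386 in ECA722. These reads were counted and not tested.

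**Figure D4:**
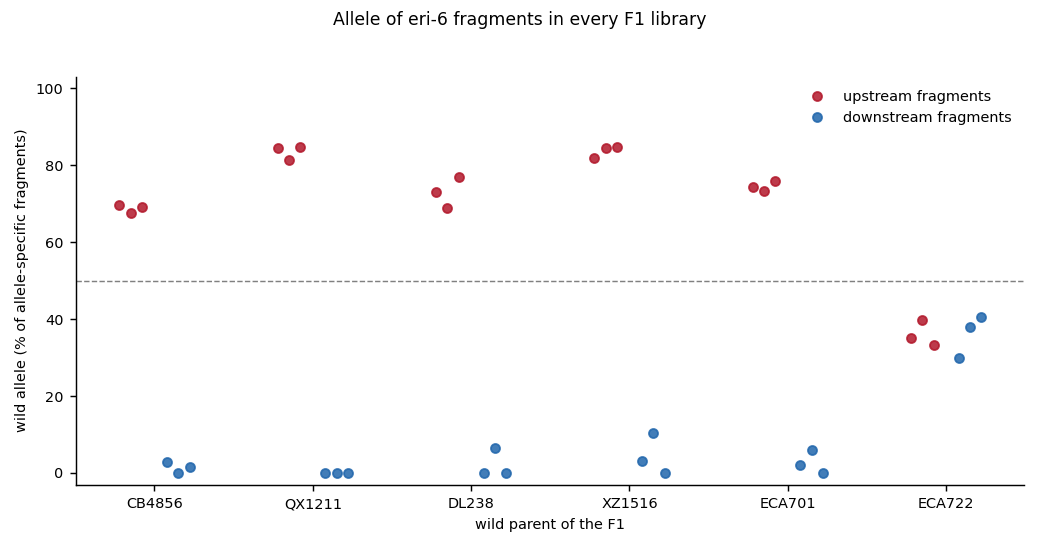
Share of allele-specific eri-6 reads from the wild allele (percent) in each F1 library, for upstream and downstream reads (fragments), by cross, with a dashed line at 50%. Downstream reads were 0% to 10.4% wild in 5 crosses and 29.8% to 40.5% in ECA722, while upstream reads were 67.6% to 84.7% wild in those 5.

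The overlapping gene sosi-1 had a low level everywhere. Its N2 libraries held 10, 31 and 34 counts, or 0.200, 0.353 and 0.367 CPM. The EG4348 libraries held 12, 6 and 6 counts, or 0.213, 0.105 and 0.0679 CPM. The other 6 wild strains were all above N2, with no overlap. XZ1516 had 2.70, 2.78 and 2.81 CPM and QX1211 had 3.00, 2.50 and 2.17 CPM. DL238 had 1.44, 1.47 and 1.85 CPM, CB4856 1.10, 1.27 and 1.42 CPM, ECA701 1.36, 1.15 and 1.12 CPM, and ECA722 1.27, 1.29 and 1.07 CPM. The difference from N2 was 3.12 ± 0.23 in XZ1516 (adjusted p = 2.3e-14) and 3.01 ± 0.23 in QX1211 (adjusted p = 7.3e-14), and 1.93 to 2.32 in the other 4. EG4348 was called lower (-1.36 ± 0.29, adjusted p = 2.7e-04), although 1 of its libraries overlapped N2. ECA722 was thus high in sosi-1 like the 5 strains with few counts of e and f, while its eri-6 transcripts e and f stood at the N2 share.

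The F1 groups of those 6 strains all exceeded N2 in sosi-1, by 1.27 to 3.12. In the XZ1516 cross the F1 had 3.39, 2.30 and 2.60 CPM, around the wild parent and not below it (0.00 ± 0.20). Allele-specific sosi-1 reads were few, and most were of the wild allele. The 3 F1 libraries together gave 74 wild and 0 N2 reads in XZ1516, 61 and 0 in DL238, 27 and 0 in QX1211, 13 and 0 in ECA701, 8 and 0 in ECA722, and 50 and 5 in CB4856. Against a floor of 3 N2 reads over the 3 libraries, the wild allele was at least 24.7-fold higher in XZ1516, at least 20.3-fold higher in DL238 and at least 9.0-fold higher in QX1211. The allelic difference passed its test in XZ1516 (adjusted p = 0.0032) and DL238 (0.025), and in CB4856 at 3.42 ± 0.60 (0.031). The DL238 call ended without any of its F1 libraries and the CB4856 call without F1 replicate 2 or 3 (adjusted p up to 0.092 and 0.145). In the N2 parental libraries 14 N2-specific sosi-1 reads and none of the other allele were found.

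The partner gene eri-7 (chromosome I, 4451194 to 4456805, minus strand) was not among the 10 but forms the same helicase. N2 had 56.5, 62.4 and 65.4 CPM, and CB4856 (28.1 to 30.3 CPM), DL238 (24.8 to 26.7 CPM), ECA701 (23.7 to 24.1 CPM) and ECA722 (28.3 to 30.4 CPM) lay below all of them. The differences were -1.07, -1.27, -1.36 and -1.08, each ± 0.04. QX1211 (-0.27 ± 0.04) and XZ1516 (-0.15 ± 0.04) were lower by less, and EG4348 did not differ by a call (0.00). So eri-7 was lowest in 3 of the strains with high eri-6 and in ECA722, where eri-6 was low as well.

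Over all members the F1 groups were called against N2 in 47 of 70 comparisons, 41 higher and 6 lower. That was 8 of 10 genes in ECA722 (35.6% of all genes tested were called), 8 in XZ1516 (42.9%), 7 in ECA701 (48%), 6 in CB4856 (34.9%), 6 in EG4348 (34.8%), 6 in DL238 (33.7%) and 6 in QX1211 (38.2%). The transcript lengths of the F1 files are those of the wild parent, so F1 reads appear to have been counted on its transcripts, and the part of that in F1 levels was not tested separately. With totals counted on both alleles 47 of 70 were called too. Over all genes the F1 was called higher than N2 in 2852 to 3738 genes per cross and lower in 2692 to 4146. Every cross had more members called than the share over all genes, and the 3 dicing genes gave 7 of these calls each, against the same N2 libraries. Since the members were chosen with earlier results of these data known, that is a description only. Against the wild parent 30 of 70 were called, 16 higher and 14 lower. The share over all genes was 51.2% in QX1211, 46.2% in ECA701, 37.5% in ECA722, 36% in XZ1516, 32.2% in CB4856, 24.4% in DL238 and 21.5% in EG4348. Against the mid-parent value 37 of 70 were called, 32 higher and 5 lower. There the share over all genes was 47.2% in ECA701, 42.3% in QX1211, 38.2% in XZ1516, 34.6% in CB4856, 33.9% in ECA722, 27.1% in DL238 and 27.1% in EG4348. By direction, 2309 to 4021 genes per cross were called above the mid-parent value and 2060 to 3741 below it.

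**Figure D5:**
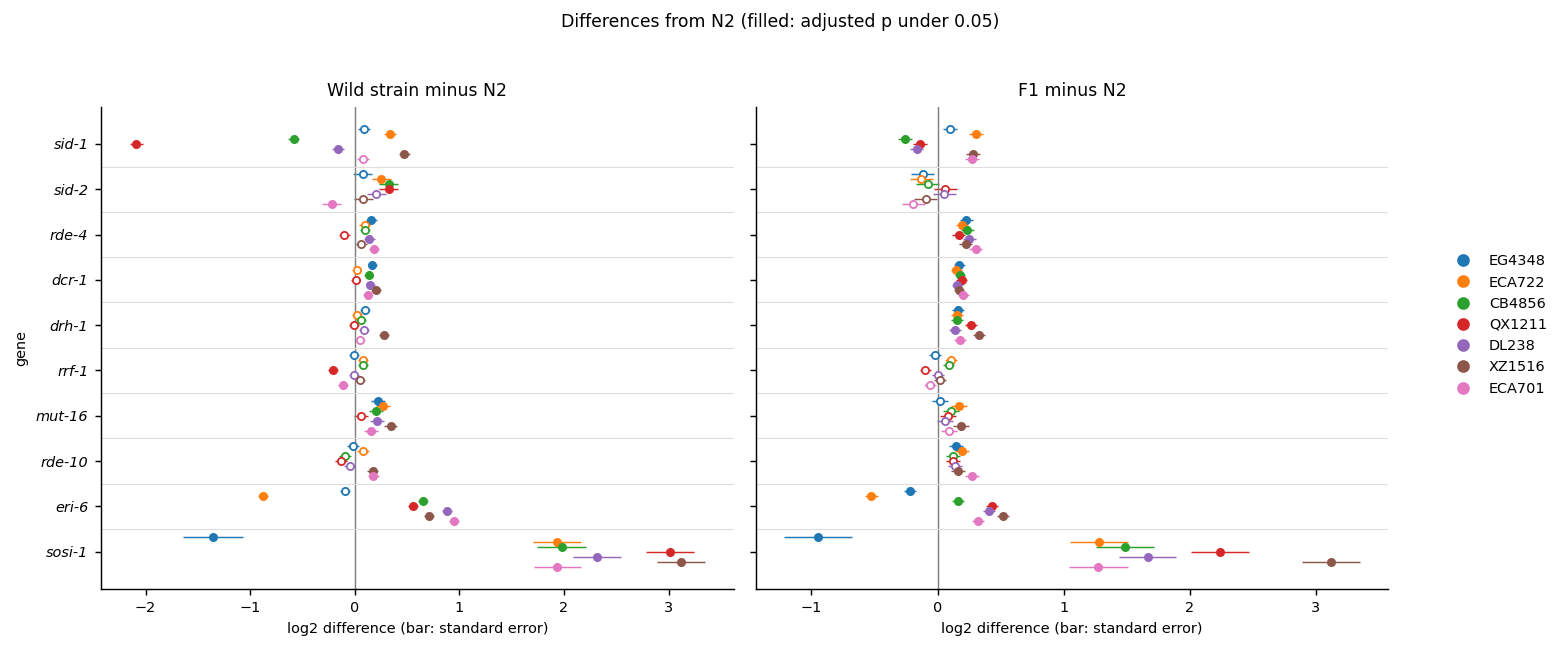
Log2 difference from N2 of each of the 10 genes in the 7 wild strains and in the 7 F1 groups, with bars of 1 SE and filled points where the adjusted p was under 0.05. The differences of sid-1 in QX1211 (-2.09) and of sosi-1 and eri-6 stand out from the small differences of the other genes.

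By class, 18 of the 70 gene and cross combinations had an F1 like the wild parent (different from N2 by a call, as the wild parent was, and not from the wild parent), 13 were intermediate, 10 lay above both parents, 4 were like N2, 10 showed no call at all and 15 fitted no class. None lay below both parents. Those above both parents were drh-1 and rde-4 in 3 crosses each, dcr-1 in 2, and sid-1 and rde-10 in 1 each.

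Alleles could be tested in 54 of the 70 combinations, and 15 were called, 14 with the wild allele higher and 1 with it lower. Over all genes tested the wild allele was called higher in 155 to 1060 genes per cross and lower in 188 to 688. In EG4348, whose sequence is close to that of N2 at these genes, 0 of 3 were called (8.46% of all genes tested were). The counts were 4 of 10 in XZ1516 (17.4%), 3 of 9 in ECA722 (9.78%), 2 of 9 in ECA701 (13.8%), 2 of 9 in QX1211 (11.3%), 2 of 8 in CB4856 (7.87%) and 2 of 6 in DL238 (7.42%). Of the 15 calls 13 belonged to mut-16, eri-6 and sosi-1. The other calls were drh-1 in XZ1516 and rrf-1 in ECA722 (0.39 ± 0.05), where the call ended without F1 replicate 1 or 2 (adjusted p 0.0951). For sid-1, sid-2, rde-4, dcr-1 and rde-10 no allelic difference was called.

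The parental minus allelic contrast was called in 14 of 54 combinations, 1 higher and 13 lower. Over all genes tested it was called higher in 307 to 873 genes per cross and lower in 221 to 1070. For the members it was called in 4 of 9 in QX1211 (14.1% of all genes), 3 of 9 in ECA722 (15.5%), 3 of 10 in XZ1516 (17.6%), 2 of 8 in CB4856 (9.07%), 1 of 9 in ECA701 (22%), 1 of 6 in DL238 (9.56%) and 0 of 3 in EG4348 (14.1%). Here mut-16 accounted for 5, sid-1 for 3, and eri-6 and sosi-1 for 2 each. As labels for patterns of calls, 5 combinations were cis only, with parents and alleles both called and not different from each other. Another 3 were trans only, with parents called, alleles not, and the contrast called. A further 8 were both, 2 compensatory, 18 conserved and 18 ambiguous. No cause was tested, and in the contrast an N2 stock difference and an F1 effect cannot be told apart. Nor can the strain of an allele and its parent of origin, since wild alleles were paternal in every cross. The cis only combinations were eri-6 in DL238, ECA701 and ECA722, sosi-1 in CB4856 and drh-1 in XZ1516. Each of their allelic calls ended when a single F1 library was left out. The 3 trans only combinations were all sid-1, in CB4856, QX1211 and ECA722. The contrast in ECA722 (0.30 ± 0.08) lost its call without N2 replicate 3, ECA722 replicate 2 or 3, or F1 replicate 1 or 3 (adjusted p up to 0.0863).

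A wider list of 37 RNAi genes was compared with N2 in the same way, with 132 of 259 comparisons called. The list had 22 of 37 genes called in ECA701 (14 higher, 8 lower; 52.5% of all genes were called there), 24 in QX1211 (7 and 17; 45.2%), 19 in ECA722 (8 and 11; 41.4%) and 18 in CB4856 (10 and 8; 31.6%). It had 18 in XZ1516 (10 and 8; 45.3%), 16 in DL238 (8 and 8; 35.9%) and 15 in EG4348 (12 and 3; 34.8%). By role, amplification and mutator genes were called higher in 29 and lower in 13 of 98 comparisons. Genes listed with the ERI complex, which makes endogenous small RNAs, were higher in 11 and lower in 18 of 42. That list includes the Argonaute gene ergo-1 (7 of the higher calls) and eri-7 (6 of the lower). The polymerase gene rrf-3 was counted with the amplification genes. Secondary and nuclear Argonaute genes, listed with other nuclear RNAi genes, were higher in 16 and lower in 15 of 56. Those other genes include nrde-1 (1 higher and 4 lower calls), nrde-2 (1 and 4) and nrde-4 (1 and 1). Uptake and spread genes were higher in 8 and lower in 13 of 35, and partners of Dicer in 5 and 4 of 28. The median log2 difference of the 37 genes was between -0.11 in QX1211 and 0.06 in XZ1516, and over all genes it was 0.03 and -0.01 in those strains.

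Within that list, 5 genes were called in the same direction in all 7 strains. The share of all genes that did so was not counted, so these 5 are a description only. The polymerase gene rrf-2 was 7.13 to 7.80 CPM in N2 and 9.64 to 29.8 CPM in the wild strains, a rise of 0.44 to 1.95. The Argonaute gene ergo-1 rose by 0.13 to 0.84, and the uptake kinase gene sid-3 by 0.13 to 0.56. The gene rsd-6, needed for RNAi in the germline, fell by 0.17 to 0.74 on the log2 scale, and eri-9 by 0.25 to 0.53. Since the N2 libraries are shared, a difference of N2 from the rest appears in all 7. The largest single differences belonged to Argonaute and transport genes. The secondary Argonaute gene sago-2 had 8.79 to 10.3 CPM in N2 and 114 to 123 CPM in ECA701, a difference of 3.61, with DL238 the strain below N2 (-0.30). Its relative sago-1 had 39.8 to 45.9 CPM in N2 and 5.44 to 6.22 CPM in ECA722 (-2.85). The gene sid-5, which takes part in the movement of silencing RNA between cells, had 4.54 to 4.78 CPM in N2 and 0.495 to 0.544 CPM in DL238 (-3.17).

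Over the 24 parental libraries the genes with the log2 CPM pattern most like eri-6 were K10C2.14 (Pearson r = 0.93), Y2H9A.6 (0.90), Y46G5A.18 (0.89), cyp-35B3 (0.89) and Y110A2AR.1 (0.88). For sosi-1 they were Y45F10C.2 (0.96), Y48G1BM.10 (0.92), F54F7.6 (0.91), K02E7.4 (0.91) and C34D4.10 (0.90). For drh-1 they were mip-2 (0.90), F20G4.2 (0.89), sel-10 (0.89), cdc-48.2 (0.89) and top-3 (0.88). These are descriptions: the 24 libraries are 3 of each of 8 strains. Among the members themselves the highest correlation was that of dcr-1 with drh-1 (0.80), and that of eri-6 with sosi-1 was 0.43.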

How the data were processed

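RNA from whole worms was sequenced in 45 libraries after poly(A) selection with a directional kit, extracted in 3 batches with 1 replicate per strain in each, per the labels' protocols. The labels do not tie a batch to a replicate number. The expected (estimated) counts and the TPM values per transcript were made with kallisto, deposited by the authors for each library, and the allele-aware expected counts by Salmon 1.4 with emase-zero, as the file names and the submitters' processing notes give it, which also list FastQC, Trimmomatic 0.39, DESeq2 1.42.0 and build ce11. Transcript lengths in the F1 files equal those of the wild parent, so F1 counts appear to come from its transcripts alone, which could favour wild reads in F1 totals. The strand setting of the counting is not given in the sources used here. A deposited variance-stabilised matrix of the authors was not used.

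Estimated counts were summed per gene (31876 of 31973 transcripts matched the WBcel235 annotation, with 99.96% of counts), rounded, filtered with filterByExpr (16439 genes kept), TMM-scaled and fitted in edgeR 4.0.16 (R 4.3.3) as group means with 30 residual degrees of freedom. Differences were tested with its quasi-likelihood test and adjusted by Benjamini-Hochberg over all genes. Alleles were tested per cross on the rounded emase-zero counts, which also divide reads shared by the alleles, with a term for library. A gene needed at least 10 allele-specific reads on average per library. The parental minus allelic contrast was tested in a fit of parental and F1 alleles. The script was tested on simulated data. In all files together 0 columns lacked a sample.

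The members and lists were chosen with earlier results of these data known. All members are named. Of the wider list the text names genes called in 1 direction in all 7 strains and the 5 with the largest mean absolute difference. The likeness lists give the 5 highest correlations. No pair of replicates agreed within sampling noise (chi-square per degree of freedom at least 3.07). The labels do not say whether replicates came from separate cultures beyond separate plates, so p-values measure the spread between these samples. Counting intervals and floors cover counting error only, and the floor is 3 counts over the 3 libraries. Alternatives were DESeq2 1.42.0, no count filter, the allele-aware totals, the compared groups alone, a replicate block, other allele-read minimums, allele-specific reads alone and leaving out each library. The division of eri-6 into 2 transcript sets was added after seeing the data.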

Additional observations from a re-analysis of the deposited data

Results flagged for a closer look

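The difference between 2 parental strains and the difference between their alleles inside the F1 worms departed from each other for 14 gene and cross combinations, by a test of that contrast itself. For mut-16 the parental minus allelic log2 difference was -1.01 in QX1211, -0.82 in XZ1516, -0.64 in ECA701, -0.86 in ECA722 and -0.93 in CB4856. The last of these lost its call without any of its 6 parental libraries (adjusted p 0.0860). For sid-1 it was -1.84 in QX1211 and -0.65 in CB4856, and 0.30 in ECA722. For eri-6 it was -0.92 in QX1211 and -0.78 in XZ1516. For sosi-1 the fitted values were -6.63 in DL238 and -7.35 in XZ1516. No N2-allele read of sosi-1 was seen in those F1 libraries, so both depend on the prior count and are no measure of size. For rrf-1 it was -0.35 in ECA722. For rde-10 it was -0.33 in QX1211, a call that ended without N2 replicate 2 or 3, any QX1211 library or F1 replicate 1 (adjusted p 0.103). The N2 side of this contrast sets the libraries labelled N2 against alleles from fog-2 mothers, and the part of that difference in the contrast was not tested.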

How the results depend on the processing

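The counts of member calls fell most with no count filter and with the compared groups alone. Against N2 the 41 calls in the wild strains became 41 with DESeq2, 28 with no count filter, 39 with the allele-aware totals and 29 with the compared groups alone, and 33 to 41 when single libraries were left out. The 47 F1 calls against N2 became 46, 37, 47 and 32, and 41 to 47. The 15 allelic calls became 19 with DESeq2, 10 with a minimum of 1 allele-specific read, 14 with a minimum of 20 and 20 from allele-specific reads alone, and 13 to 15 without single libraries. The 14 parental minus allelic calls became 15, 16, 14 and 16, and 11 to 15. With a replicate block the calls against N2 were 41 in the wild strains and 48 in the F1 groups. The labels do not say that a number marks a batch, and same-numbered libraries did not all deviate together (median correlation 0.03, 89 of 315 pairs over 0.1), so the numbers were not taken as pairs. A hint from the data of some shared deviation is that 26 of 45 libraries were closest to their own number. Without the library block the alleles gave 18 calls. All 10 genes differed among the parental strains under each alternative run for that test. The direction of eri-6 against N2 reversed where transcripts e and f were counted alone: eri-6, wild minus N2, was then -4.36 in XZ1516, -4.11 in ECA701, -3.65 in QX1211, -3.53 in DL238 and -3.47 in CB4856, the other transcripts being left out by construction. Where neither setting gave a call, a change of sign was not counted. Depth limited sosi-1, with 6 to 34 counts per library in N2 and EG4348. Few or no sequence differences limited the alleles of EG4348, where 3 members could be tested, and of mut-16 in DL238, where no read told the alleles apart.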
